A study of Rattus norvegicus with 51 samples.

Results

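Engineered tissue of neonatal rat ventricular myocytes was cyclically stretched for 24 h either across its cell pattern (transverse) or along it (longitudinal), and the 2 directions are compared here. The comparison holds 6 of the 51 Affymetrix arrays of the study, 3 per direction, and its arrays were chosen by their labels alone. The cells came from Sprague-Dawley rats and were seeded on silicone membranes printed with a micropattern of fibronectin, which makes anisotropic tissue. The culture protocol is the same for both groups and for the 3 unstretched arrays of the same tissue and time. It gives 1 h of attachment and M199 medium with 10% serum for the first 48 h and 2% after that. Counted from attachment, 24 h falls within the first 48 h. The labels give no difference between these arrays other than the stretch and the harvest, described next. The age of the animals and the amplitude and rate of the stretch are not given in the sources used here. Such primary cultures also hold cells other than myocytes.

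The 3 transverse arrays came from harvests 4, 5 and 6, the 3 longitudinal arrays from harvests 2, 4 and 5, and the 3 unstretched arrays from harvests 1, 2 and 4. A harvest is a separate primary isolation of cells. Array values below are given in that order of harvests. Harvests 4 and 5 hold both directions, so each gives a difference within 1 isolation. Harvest 6 has 3 arrays in the whole study, of which 1 is transverse at 24 h, so the level of that array rests on the harvest term of the model.

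In a ventricular myocyte the myofibrils run along the long axis, and the Z-discs and the giant spring protein titin lie in series with them. Pull along the axis therefore loads these structures directly, whereas pull across it also acts through costameres, the attachments between the outer Z-discs and the matrix, and through the lateral cell borders. Loaded myocytes are known for switching on a foetal and hypertrophic programme that includes natriuretic peptides, skeletal actin and strain-responsive Z-disc proteins.

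Each array was compared on the log2 scale of its deposited signal, where a difference of 1 is a doubling. Differences are transverse minus longitudinal, estimated by limma with a term for harvest over all 51 arrays, and are given with ± their standard error (30 residual degrees of freedom). A gene passes where its p-value, adjusted over 18602 genes by the Benjamini-Hochberg method, is under 0.05.

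The arrays of the transverse group were not alike. Transverse replicate 2, of harvest 5, had the lowest signal of cytosolic ribosomal protein genes in the study, a median of 10.74 over 78 genes, against 11.03 to 11.52 on the other 50 arrays. Across genes it correlated at r = 0.9871 to 0.991 with the other 5 arrays of the comparison. Transverse replicate 1 and longitudinal replicate 2, both of harvest 4, were the closest pair of the 6 arrays (r = 0.9965). The count of genes past the threshold depends on these 2 transverse arrays, so values without 1 of them stand beside many of the main ones. Such values are not given everywhere, so a value that stands alone may also move without 1 of these arrays. Cardiomyocyte markers were bright on all 6 arrays, with medians over 10 genes of 11.5 to 11.63 on transverse and 11.37 to 11.55 on longitudinal arrays.

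No gene passed the test with all 6 arrays: 0 of 18602 (0%), with a smallest adjusted p of 0.0982 that 18 genes shared, 15 of them lower under transverse stretch. At an unadjusted p under 0.05 there were 1458 genes (7.84%), of which 810 (4.35%) were higher and 648 (3.48%) lower under transverse stretch. All 3 transverse arrays lay above all 3 longitudinal arrays in 906 genes (4.87%) and below them in 821 (4.41%). The median standard error of a difference was 0.10, and 57 genes had an estimate of 1.5-fold or more. What follows gives the values of the genes that lay farthest apart and of gene lists, and none of these differences is called a change. Apart from the genes named by rule, genes of a list were singled out after their values were seen.

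Genes of the foetal and hypertrophic programme leaned lower under transverse stretch. In this list 11 of 12 measured genes had a negative difference and the median was -0.46, against a median of 0.01 over all genes. None passed, 6 of the 12 were lower at an unadjusted p under 0.05, and 1, Gdf15, had all 3 transverse arrays below all 3 longitudinal arrays, where 3.48% and 4.41% of all genes did so. In these bulk samples fewer cells of a type and less RNA per cell cannot be told apart.

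Nppb encodes the precursor of B-type natriuretic peptide, a hormone released by loaded myocytes. Its log2 signal was 10.85, 10.91 and 12.72 on transverse arrays, against 12.38, 12.10 and 12.18 on longitudinal arrays. The transverse arrays of harvests 4 and 5 thus lay far below every longitudinal array, and the harvest 6 array lay above them all. Within a harvest the difference was -1.25 in harvest 4 and -1.27 in harvest 5, which are nearly equal. Over all arrays it was -0.93 ± 0.24 (adjusted p = 0.206). With harvests 4 and 5 alone in both groups Nppb was the gene that passed (-1.26, adjusted p = 0.0173), and it also passed without transverse replicate 3 (-1.32, adjusted p = 0.00122). It was -0.62 without transverse replicate 1 and -0.70 without transverse replicate 2. Over all alternatives its adjusted p ran from 0.00122 to 1. With the harvest 6 array as the only transverse array, the estimate had the opposite sign (0.35). Harvest 6 had an Nppb signal of 11.13 at 0 h, where the other 5 harvests had 10.79 to 11.25.

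The bases before the start of Nppb are shown because binding sites of stretch-linked and cardiac factors have been described there. The rat sequence (RefSeq, GRCr8, chr5:163699758-163700007, plus strand, the 250 bases before the annotated start) holds an M-CAT element, the letters CATTCC read on either strand, at bases -131 to -126, and a pair of GATA elements, AGATAA or TGATAA, at -121 to -116 and -110 to -105. For Acta1 the same window (chr19:68784195-68784444, minus strand) holds a CArG box, the element of serum response factor, at -94 to -85 and an M-CAT element at -67 to -62. Capitals mark these matches, both strands were searched, and none of them overlap.
Nppb: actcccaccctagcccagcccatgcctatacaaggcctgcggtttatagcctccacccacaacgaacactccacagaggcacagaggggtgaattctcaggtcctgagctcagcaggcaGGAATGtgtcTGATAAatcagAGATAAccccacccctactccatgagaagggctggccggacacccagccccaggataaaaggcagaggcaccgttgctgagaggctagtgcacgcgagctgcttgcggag
Acta1: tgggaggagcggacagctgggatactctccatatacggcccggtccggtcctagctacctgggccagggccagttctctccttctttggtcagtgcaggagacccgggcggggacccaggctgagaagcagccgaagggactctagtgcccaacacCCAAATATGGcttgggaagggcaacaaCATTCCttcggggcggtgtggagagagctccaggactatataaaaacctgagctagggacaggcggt
Of 27457 promoters of this length, 11.8% hold the M-CAT letters, 16.6% a GATA element and 1.5% a CArG box. Of the 9 list genes with a promoter in the table, 2 hold an M-CAT match (Acta1 and Nppb), 2 a GATA match (Nppa and Nppb) and 2 a CArG box (Acta1 and Fhl1). A match is a description of the letters and not of binding.

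Acta1, the skeletal muscle actin of foetal and loaded hearts, had 11.50, 10.95 and 12.09 on transverse arrays, against 12.65, 11.56 and 12.25 on longitudinal arrays. The groups overlapped, and the difference within harvest 4 was small (-0.06) beside that within harvest 5 (-1.30). Overall it was -0.80 ± 0.31 (adjusted p = 0.487), and -0.49 without transverse replicate 2. For Nppa, the atrial natriuretic peptide precursor, the arrays had 11.41, 11.68 and 12.23 under transverse stretch, against 12.42, 11.81 and 12.27 under longitudinal stretch. The estimate was -0.51 ± 0.24 (adjusted p = 0.625), and -0.33 without transverse replicate 1. Myh7 and Myh6, the slow and fast cardiac myosin heavy chains, lay close to level at -0.10 (95% interval -0.31 to 0.10) and 0.20 (-0.04 to 0.44).

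Strain-responsive genes of the Z-disc held some of the widest differences. Xirp2, a Xin repeat protein of Z-discs and intercalated discs, had 8.77, 9.67 and 10.16 on transverse arrays, against 10.94, 9.96 and 10.78 on longitudinal arrays and 7.47, 8.64 and 8.92 on unstretched arrays. Both stretched groups thus lay mostly above unstretched tissue, with the transverse arrays between. The direct difference was -1.17 ± 0.38 (95% interval -1.93 to -0.40, adjusted p = 0.337), the lowest estimate among all genes. It was -0.75 (adjusted p = 0.479) without transverse replicate 1 and -0.54 with the harvest 6 array as the only transverse array. In harvests 4 and 5 it was -1.19 and -1.11. Ankrd23, a titin-binding ankyrin repeat protein, had 5.88, 5.99 and 6.61 on transverse arrays, against 7.24, 6.995 and 7.04 on longitudinal arrays. These groups did not overlap, and the difference was -1.002 ± 0.30 (adjusted p = 0.313). Csrp3, the muscle LIM protein, differed by -0.51 ± 0.19 (adjusted p = 0.458) and overlapped. Ankrd1, a relative of Ankrd23 and a common stretch marker, differed by -0.09 (95% interval -0.26 to 0.09).

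Gdf15, a stress-induced cytokine of the TGF-beta family, had 7.36, 7.54 and 7.98 under transverse stretch, against 8.65, 8.11 and 8.40 under longitudinal stretch, a difference of -0.96 ± 0.40 (adjusted p = 0.535). Among the 19 measured Z-disc genes 14 differences were negative and the median was -0.08. The list median without transverse replicate 1 was 0.03. The foetal programme's median was -0.34 without transverse replicate 1, -0.42 without transverse replicate 2 and -0.08 with the harvest 6 array as the only transverse array.

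**Figure D1:**
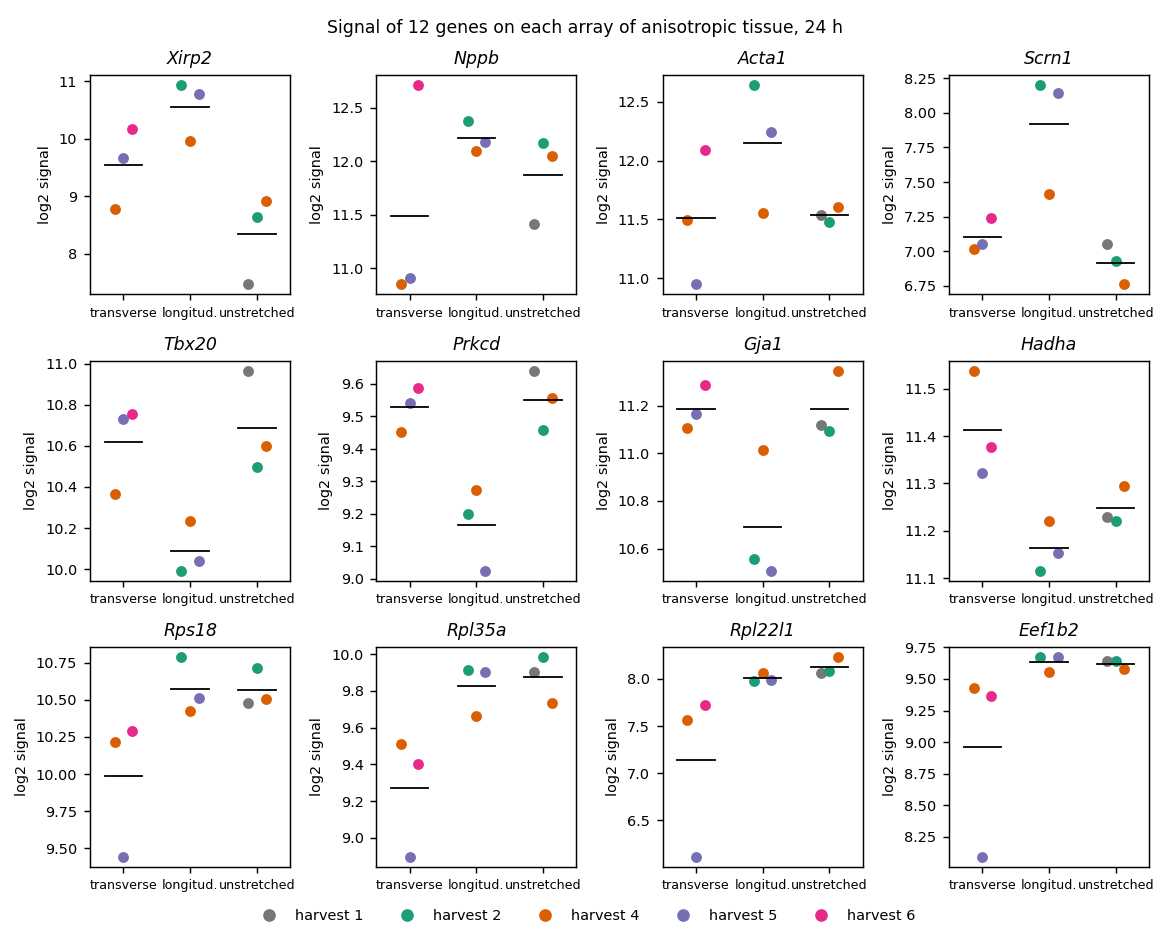
Log2 signal of 12 genes on the 3 transverse, 3 longitudinal and 3 unstretched arrays of anisotropic tissue at 24 h, with colours for harvests and a bar at each group mean. Nppb is low on 2 of 3 transverse arrays, Scrn1 is high on the longitudinal arrays, and the translation genes of the bottom row are lowest on the transverse array of harvest 5.

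Setting each direction beside unstretched tissue shows where these values lie, with the caution that both contrasts use the same 3 unstretched arrays. Against unstretched tissue 271 genes (1.46%) changed under transverse stretch, 100 higher (0.538%) and 171 lower (0.919%). Under longitudinal stretch 414 genes (2.23%) changed, 147 higher (0.79%) and 267 lower (1.44%). The transverse count was 694 without transverse replicate 1, 37 without transverse replicate 2 and 577 without transverse replicate 3, and 51 to 170 with 1 unstretched array left out. The longitudinal count was 174 without longitudinal replicate 1, 178 without longitudinal replicate 3 and 149 to 256 with 1 unstretched array left out.

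Signal levels of markers of other cells differed between stretched and unstretched arrays, here before the term for harvest. Smooth muscle and pericyte markers had list medians of 8.17 to 8.58 on transverse and 8.23 to 8.82 on longitudinal arrays, against 7.54 to 7.88 on unstretched arrays. Macrophage and leukocyte markers had 5.56 to 5.80 on transverse and 5.58 to 5.94 on longitudinal arrays, against 6.13 to 6.55 on unstretched arrays. Epicardial and mesothelial markers had 5.01 to 5.27 on transverse and 5.10 to 5.19 on longitudinal arrays, against 5.38 to 5.67 on unstretched arrays, and endothelial markers had 5.45 to 5.89 on unstretched arrays, above the stretched arrays. The ranges of the stretched groups do not overlap those of unstretched tissue in these 4 lists. With harvest in the model, the median difference from unstretched tissue was 0.15 under transverse and 0.205 under longitudinal stretch for smooth muscle and pericytes. In the same order it was -0.004 and -0.18 for macrophages and leukocytes, -0.16 and -0.21 for epicardium and mesothelium, and -0.38 and -0.28 for endothelium. The part of these markers in the calls was not tested.

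From the foetal list 4 of 12 genes (Xirp2, Gdf15, Csrp3 and Fhl1) rose under longitudinal stretch (0.79% of all genes) and 0 of 12 under transverse stretch (0.538%). The calls of Gdf15 and Csrp3 were lost without longitudinal replicate 1 or 3 or any unstretched array, and that of Fhl1, a LIM protein of the titin spring region, without longitudinal replicate 1 or 3 or unstretched replicate 2. Xirp2 rose by 1.98 (adjusted p = 0.00188) under longitudinal stretch, a call that held with each of the 9 arrays left out in turn, and was 0.81 above unstretched tissue under transverse stretch (adjusted p = 0.348). Ctgf, a matrix protein gene switched on by load, rose under transverse stretch by 1.14 (adjusted p = 0.0494) and under longitudinal stretch by 1.61 (adjusted p = 0.00142). The transverse call of Ctgf was lost without any 1 of 8 arrays, and the direct difference between directions was -0.47 ± 0.30 (adjusted p = 0.779). Without transverse replicate 1 that direct difference was -0.15. Some genes of the muscle cytoskeleton rose in both directions. Nrap, an anchoring protein of growing myofibrils, rose by 0.77 under transverse stretch (adjusted p = 0.0156) and 0.87 under longitudinal stretch (adjusted p = 0.00184). Itga5, the fibronectin receptor chain alpha 5, rose by 0.69 under transverse (adjusted p = 0.0238) and 0.92 under longitudinal stretch (adjusted p = 0.000736). Pdlim3, a Z-disc LIM protein, rose by 1.06 under transverse (adjusted p = 0.0238) and 0.98 under longitudinal stretch (adjusted p = 0.0172). These 3 transverse calls were lost without transverse replicate 2, and without unstretched replicate 2. The longitudinal call of Pdlim3 was lost without longitudinal replicate 2 or 3 or unstretched replicate 2 or 3 (highest adjusted p = 0.108). Whether the directions differ is answered by the direct comparison alone, which none of these genes passed.

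Scrn1 (secernin 1) had the second smallest p of the direct comparison. Its signal was 7.01, 7.05 and 7.24 on transverse arrays, against 8.21, 7.41 and 8.14 on longitudinal arrays and 7.05, 6.93 and 6.76 on unstretched arrays. The transverse and unstretched arrays overlapped, and all 3 longitudinal arrays lay above both. The difference was -0.82 ± 0.16 (95% interval -1.14 to -0.49, adjusted p = 0.0982) and was -0.69 without transverse replicate 2 and -0.87 without transverse replicate 1. Under longitudinal stretch Scrn1 rose by 0.90 (adjusted p = 0.000957, also past the threshold with each of the 9 arrays left out), while under transverse stretch it lay 0.08 above unstretched tissue (adjusted p = 0.904). It passed in the direct comparison without transverse replicate 1 (adjusted p = 0.0168).

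Several muscle and cytoskeletal genes outside the foetal list also had lower estimates under transverse than under longitudinal stretch. Cnn1, a smooth muscle calponin, had 8.22, 8.58 and 8.78 on transverse arrays, against 9.61, 8.33 and 9.76 on longitudinal arrays, where the harvest 4 array was the low one. It rose by 2.20 under longitudinal stretch (adjusted p = 0.000594), and the directions differed by -0.87 ± 0.37 (adjusted p = 0.536). Actn1, a non-muscle alpha-actinin, rose by 1.03 under longitudinal stretch (adjusted p = 0.00113), with a difference between directions of -0.44 ± 0.19 (adjusted p = 0.543). It overlapped on the low longitudinal array of harvest 4. Casq1, a calsequestrin that stores calcium, had 8.91, 8.53 and 8.24 on transverse arrays, against 9.37, 9.08 and 9.26 on longitudinal arrays. Its groups did not overlap and differed by -0.77 ± 0.32 (adjusted p = 0.536). Of 17 measured targets of SRF and MRTF, 13 had negative differences, with a median of -0.10. Of 22 genes of the unfolded protein and integrated stress response 16 were negative (median -0.05). Of these Atf4, Dnajb9 and Mthfd2 were lower at an unadjusted p under 0.05 (estimates of -0.27, -0.31 and -0.43), where 3.48% of all genes were.

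**Figure D2:**
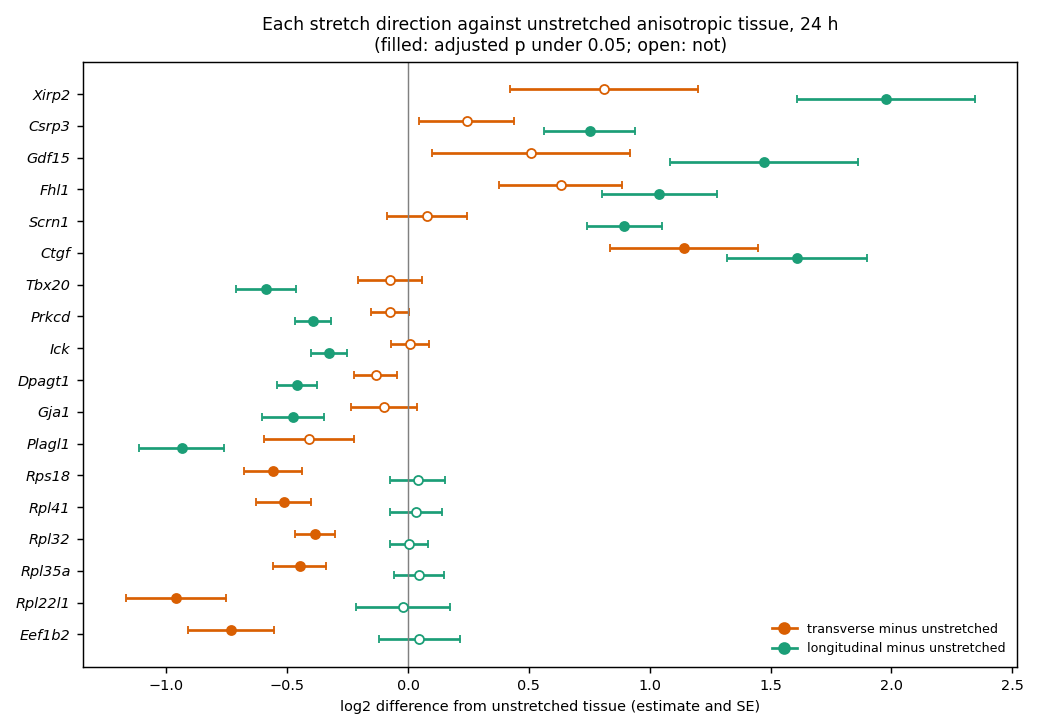
Log2 difference from unstretched tissue at 24 h for 18 genes, transverse and longitudinal stretch, with bars of 1 standard error and filled points where the adjusted p was under 0.05. Xirp2, Scrn1, Tbx20 and Prkcd lie near or closer to 0 under transverse stretch, and Rps18 and the other translation genes near 0 under longitudinal stretch.

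Genes that lay higher under transverse stretch included regulators of the working myocyte. Tbx20, a T-box factor needed for heart development and adult myocyte function, had 10.37, 10.73 and 10.76 on transverse arrays, against 9.99, 10.23 and 10.04 on longitudinal arrays and 10.97, 10.50 and 10.60 on unstretched arrays. The stretched groups did not overlap, and the transverse arrays overlapped the unstretched ones. The difference was 0.51 ± 0.13 (adjusted p = 0.169), in harvest 4 it was 0.13 and in harvest 5 it was 0.69. Under longitudinal stretch Tbx20 fell by 0.59 (adjusted p = 0.00612), a call lost without longitudinal replicate 3 or unstretched replicate 1 (highest adjusted p = 0.0607). Under transverse stretch its difference from unstretched tissue was -0.07 (adjusted p = 0.882).

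Of the 16 measured cardiac transcription factors 12 had positive differences (median 0.19), 4 of them at an unadjusted p under 0.05, where 4.35% of all genes were higher. Besides Tbx20 these were Tbx5 (0.47 ± 0.14), Irx4 (0.40 ± 0.19) and Gata4 (0.23 ± 0.10), with adjusted p from 0.313 to 0.622, and Hand2 was lower (-0.17 ± 0.08, adjusted p = 0.626). Irx4, a factor of ventricular identity, had 8.22, 8.08 and 8.09 on transverse arrays, against 7.58, 7.85 and 7.60 on longitudinal arrays, with no overlap. Without transverse replicate 2 the list's median was 0.10. It was 0.07 within harvest 4 and 0.46 within harvest 5.

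Prkcd, the enzyme protein kinase C delta, had 9.45, 9.54 and 9.59 on transverse arrays, against 9.20, 9.27 and 9.03 on longitudinal arrays and 9.64, 9.46 and 9.56 on unstretched arrays. Its difference of 0.32 ± 0.08 (adjusted p = 0.14) separated the groups fully and was nearly the same without transverse replicate 1 (0.36) or 2 (0.29). Prkcd fell by 0.39 under longitudinal stretch (adjusted p = 0.00199) and held that call with each of the 9 arrays left out. Ick, a serine and threonine kinase, had 8.07, 8.18 and 8.14 under transverse stretch, against 7.81, 7.86 and 7.78 under longitudinal stretch, a difference of 0.33 ± 0.08 (adjusted p = 0.0982). Dpagt1, the enzyme that starts assembly of the N-glycan precursor, differed by 0.32 ± 0.09 (adjusted p = 0.222) and fell by 0.46 under longitudinal stretch (adjusted p = 0.00149). Against unstretched tissue the transverse estimates were -0.08, 0.01 and -0.13 for these 3 enzymes.

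Hp1bp3, a heterochromatin-binding protein gene, had 9.12, 9.66 and 8.93 on transverse arrays, against 8.73, 8.90 and 8.86 on longitudinal arrays, a difference of 0.45 ± 0.10 (adjusted p = 0.0982). Zfp426l, a zinc finger gene, had 8.49, 9.06 and 8.41 on transverse arrays, against 7.75, 8.17 and 8.27 on longitudinal arrays, a difference of 0.51 ± 0.11 (adjusted p = 0.0982). In both genes transverse replicate 2 was the highest array by a wide margin. The estimates without it were 0.26 for Hp1bp3 and 0.31 for Zfp426l. Neither group overlapped the other in these 2 genes. Ppp2r3c, a regulatory subunit of protein phosphatase 2A, and Ints9, a subunit of the Integrator complex, differed by 0.34 ± 0.09 (adjusted p = 0.169) and 0.37 ± 0.10 (adjusted p = 0.206), with overlapping groups. Without transverse replicate 2 the estimates were 0.27 for Ppp2r3c and 0.20 for Ints9.

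At cell borders, Gja1, which encodes the main gap junction protein of ventricle, had 11.10, 11.16 and 11.29 on transverse arrays, against 10.56, 11.01 and 10.51 on longitudinal arrays and 11.12, 11.10 and 11.35 on unstretched arrays. The stretched groups did not overlap, although the harvest 4 arrays of both directions lay close (0.09 apart). The difference was 0.38 ± 0.13 (95% interval 0.11 to 0.64, adjusted p = 0.413). Cdh2, N-cadherin of the intercalated disc, differed by 0.20 ± 0.09 (adjusted p = 0.578) with overlap, and by 0.01 without transverse replicate 2. Vcl, vinculin, differed by 0.02 (95% interval -0.17 to 0.20). Over the 17 measured genes of the intercalated disc and gap junction the median was 0.03, and 0.15 without transverse replicate 1.

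Of 28 measured costamere genes 13 had positive differences, with a median of -0.03. Sgcd, delta-sarcoglycan of the dystrophin complex, had 8.52, 8.70 and 8.65 on transverse arrays, against 7.88, 8.38 and 7.93 on longitudinal arrays. It did not overlap and differed by 0.41 ± 0.16 (adjusted p = 0.47). Dag1 (dystroglycan, 0.25 ± 0.10) and Sgcb (beta-sarcoglycan, 0.22 ± 0.10) also lay higher at an unadjusted p under 0.05, as did Lims1 (PINCH, 0.18 ± 0.09), while its partner Ilk, integrin-linked kinase, lay lower (-0.18 ± 0.09). In all, 4 of the 28 were higher and 2 lower at that p, against 4.35% and 3.48% of all genes. Without transverse replicate 2 the list's median was -0.13, with 0 of 28 higher and 7 lower at an unadjusted p under 0.05 (1.58% and 1.38% of all genes). The medians within harvests 4 and 5 were -0.19 and 0.14.

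Fatty acid oxidation, the main fuel route of the mature heart, leaned higher under transverse stretch. Of 20 measured genes 18 had positive differences, the median was 0.17, and 8 had all 3 transverse arrays above all 3 longitudinal arrays (4.87% of all genes). None passed, and 4 were higher at an unadjusted p under 0.05, where 4.35% of all genes were (Hadha, Ech1, Cpt1a and Cpt2). Hadha, a subunit of the mitochondrial trifunctional protein, had 11.54, 11.32 and 11.38 on transverse arrays, against 11.12, 11.22 and 11.15 on longitudinal arrays, a difference of 0.19 ± 0.09 (adjusted p = 0.621). Cpt1a, which admits fatty acids to mitochondria, had 9.08, 9.42 and 9.16 on transverse arrays, against 8.84, 9.06 and 8.70 on longitudinal arrays, a difference of 0.31 ± 0.14 (adjusted p = 0.591). The list's median was 0.14 without transverse replicate 1 and 0.19 without transverse replicate 2, and so positive in both cases. Against unstretched tissue the medians were 0.01 under transverse and -0.10 under longitudinal stretch, with no member past the threshold.

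Ion channel genes were of the same sign, with 18 of 23 positive and a median of 0.14. Cacna1h, a T-type calcium channel, had 7.61, 8.004 and 7.35 on transverse arrays, against 7.26, 7.07 and 7.28 on longitudinal arrays, a difference of 0.51 ± 0.16 (adjusted p = 0.313). Hcn4, the pacemaker channel, differed by 0.44 ± 0.18 (adjusted p = 0.52) and Kcnj5, an inward rectifier, by 0.38 ± 0.17 (adjusted p = 0.585), both with overlap. Among 16 measured calcium handling genes 12 were positive (median 0.16). That median was 0.08 without transverse replicate 2 and -0.01 within harvest 4, and for ion channels the harvest 4 median was 0.01. Pln, phospholamban, the inhibitor of the calcium pump, had 12.66, 12.70 and 12.68 on transverse arrays, against 12.34, 12.39 and 12.41 on longitudinal arrays, a difference of 0.26 ± 0.10 (adjusted p = 0.528). The pump itself, Atp2a2, differed by 0.17 (95% interval -0.06 to 0.41), and by 0.29 without transverse replicate 1.

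**Figure D3:**
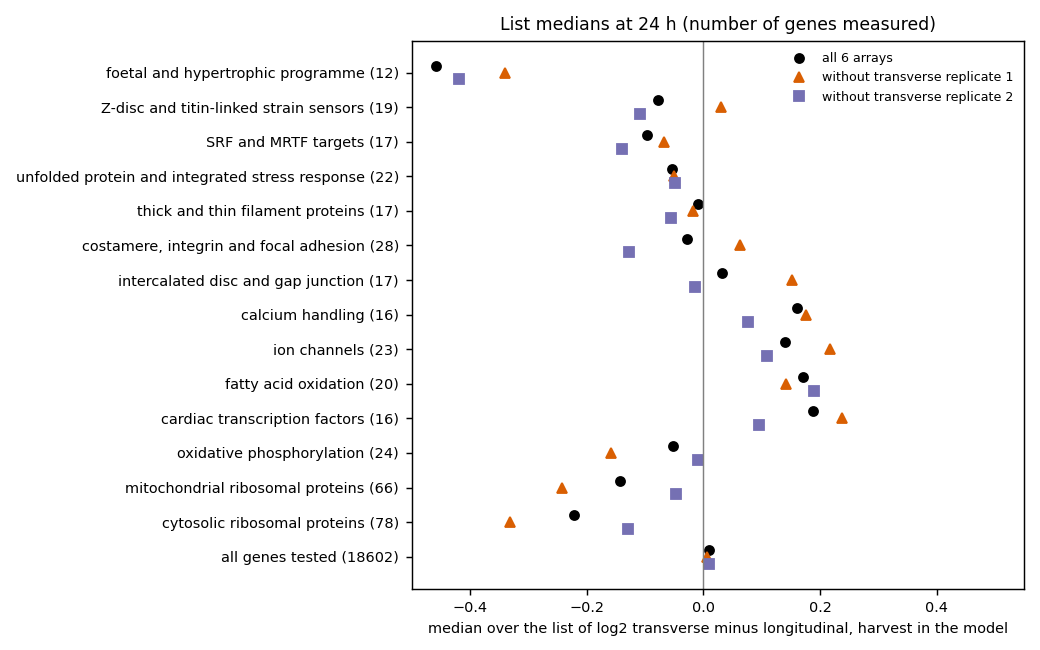
Median transverse minus longitudinal difference of 14 gene lists and of all genes at 24 h, with all 6 arrays and without transverse replicate 1 or 2. The foetal and hypertrophic list lies below 0 and fatty acid oxidation above 0 in all 3 settings, and the ribosomal lists lie farther below 0 without transverse replicate 1 than without transverse replicate 2.

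Ribosomal protein genes made up most of the smallest p-values. This list was added after the values had been seen. Of 78 cytosolic ribosomal protein genes 74 had negative differences, the median was -0.22, 52 had an unadjusted p under 0.05 and 27 had all 3 transverse arrays below all 3 longitudinal arrays, where 3.48% and 4.41% of all genes did so. The median signal of the list was 11.18, 10.74 and 11.18 on transverse arrays, against 11.45, 11.27 and 11.35 on longitudinal arrays and 11.39, 11.45 and 11.29 on unstretched arrays. All 3 transverse arrays lay below the longitudinal and unstretched arrays of 24 h, and transverse replicate 2 was the lowest by far. The level of the other transverse arrays was also seen elsewhere in the study, with 11.18 on the 0 h array of harvest 6 and 11.09 on the 96 h transverse array of harvest 4. Within harvest 4 the median difference of the list was -0.06, and within harvest 5, which holds transverse replicate 2, it was -0.47.

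Rps18, a protein of the small subunit, had the smallest p of the comparison. It had 10.22, 9.44 and 10.29 on transverse arrays, against 10.79, 10.42 and 10.51 on longitudinal arrays, a difference of -0.60 ± 0.12 (95% interval -0.83 to -0.37, adjusted p = 0.0982). Rpl35a of the large subunit had 9.51, 8.90 and 9.40 on transverse arrays, against 9.92, 9.66 and 9.91 on longitudinal arrays. In both genes the groups did not overlap and the harvest 5 array was lowest. Rpl35a differed by -0.49 ± 0.11 (adjusted p = 0.0982). Without transverse replicate 2 the estimates were -0.36 for Rps18 and -0.30 for Rpl35a. Rpl22l1, a paralogue of a large subunit protein, had 7.57, 6.11 and 7.73 on transverse arrays, against 7.98, 8.07 and 7.99 on longitudinal arrays, a difference of -0.94 ± 0.20. Eef1b2, a subunit of translation elongation factor 1, had 9.43, 8.09 and 9.36 on transverse arrays, against 9.68, 9.56 and 9.67 on longitudinal arrays, a difference of -0.78 ± 0.17. Without transverse replicate 2 these differences were -0.53 for Rpl22l1 and -0.33 for Eef1b2. For Rpl41 (-0.55 ± 0.11) and Rpl32 (-0.39 ± 0.08) the transverse array of harvest 6 lay above the longitudinal array of harvest 4. These genes have many processed pseudogenes of near-identical sequence, so that probe sets may collect signal from several loci.

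Transcripts of these genes are known in mammals for a run of pyrimidines at the very start, through which their translation is controlled. The bases around the annotated starts, 20 before and 10 after, are printed for some of the genes above. They show which of these carry the run in the RefSeq annotation (GRCr8). Capitals mark a C at the first base followed by 4 or more C or T.
Rps18 (chr20:4933725-4933754, plus strand): aactacacgtcacttccgctCTCTCTTCCa
Rpl35a (chr11:81235012-81235041, minus strand): gcgcggcgggtcttgccttcCTCTTTCCgc
Rpl22l1 (chr2:113683176-113683205, plus strand): tgagcgctccgtggatatccggttccgagt
Rpl41 (chr7:1563488-1563517, minus strand): gaaggggcggctcggaagtgacgacaccaa
Eef1b2 (chr9:72074071-72074100, plus strand): ggacttttccggccggtcccggcccttttt
Rps18 and Rpl35a carry a run of 9 and 8 bases, and the other 3 have no run at the annotated base. Of 63 listed ribosomal genes with a sequence 24 carry the run (38.1%), against 2.63% of 27457 promoters. The 24 had a median difference of -0.23 and the remaining 39 of -0.22. Only a run at the annotated first base was counted, so a start annotated a few bases away would be scored as having none.

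Values that moved with the ribosomal genes are given here, and their part in the result was not tested. Without transverse replicate 2 the list's median was -0.13 and 22 of the 78 genes were lower at an unadjusted p under 0.05, where 1.38% of all genes were. Without transverse replicate 1 it was -0.33 and 40 genes were called lower, where 1.03% of all genes were. Mitochondrial ribosomal protein genes had a median of -0.14, with 57 of 66 negative, and -0.05 without transverse replicate 2. Gene length moved in step. Among genes at or above the median level, those with the shortest spans in the genome (73 to 6522 bases) had a median difference of -0.05 and those with the longest (over 50912 bases) 0.10. On transverse replicate 2 these medians were -0.11 and 0.24 from the longitudinal mean, and without that array the differences were -0.01 and 0.00 (signal adjusted for harvest, 90.8% of genes matched to a span).

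Against unstretched tissue 12 of the 78 ribosomal genes fell under transverse stretch, where 0.919% of all genes fell, and 0 changed under longitudinal stretch, where 2.23% changed. Rps18 fell by 0.56 under transverse stretch (adjusted p = 0.0125) and differed by 0.04 under longitudinal stretch (adjusted p = 0.943). All 12 calls were lost without transverse replicate 2.

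**Figure D4:**
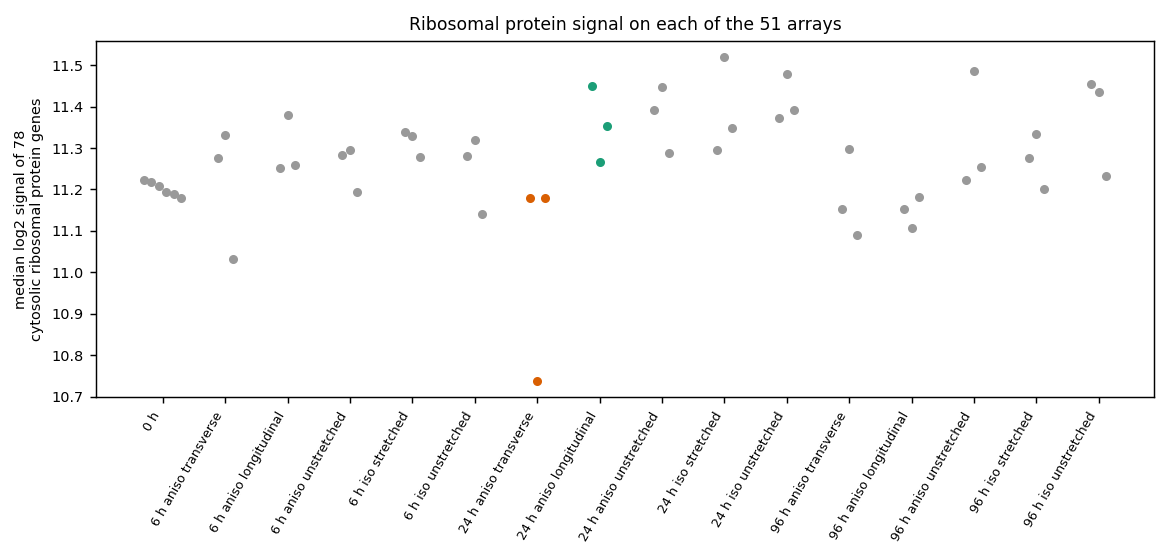
Median log2 signal of 78 cytosolic ribosomal protein genes on each of the 51 arrays, by group, with the 24 h transverse arrays in orange and the 24 h longitudinal arrays in green. The transverse array at 10.74 lies below all others, and the other two transverse arrays of 24 h lie at 11.18.

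Without transverse replicate 1, 286 genes passed (1.54%), 94 higher (0.505%) and 192 lower (1.03%) under transverse stretch. In this setting the transverse group is 2 arrays, of harvests 5 and 6. Without transverse replicate 2 no gene passed, and 550 (2.96%) had an unadjusted p under 0.05, 294 higher (1.58%) and 256 lower (1.38%). Of the 286 genes 52 were among those 550. Without transverse replicate 3, 32 genes passed (11 higher and 21 lower), and without longitudinal replicate 2, 8 passed, all lower, among them Scrn1, Rps18 and Aqp1, the water channel. Without longitudinal replicate 1 or 3 no gene passed.

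The 94 genes that lay higher under transverse than longitudinal stretch without transverse replicate 1 had a median span of 55364 bases. The 192 that lay lower had 6206 bases, against 19487 over all genes with a span. Ribosomal proteins accounted for 40 cytosolic and 9 mitochondrial genes among the 192. The genes named next are those with the widest estimates in this setting and were chosen after their values were seen. Ablim1, an actin-binding LIM protein, had 8.84, 9.37 and 9.74 on transverse arrays, against 8.47, 8.82 and 8.69 on longitudinal arrays. In this setting its difference between directions was 0.90 (adjusted p = 0.013). Vnn1, a pantetheinase, had 9.94, 10.12 and 9.97 on transverse arrays, against 9.30, 9.60 and 9.46 on longitudinal arrays. Its difference between directions was 0.71 (adjusted p = 0.0419). These 2 genes did not overlap even with transverse replicate 1 included. Without transverse replicate 2 the estimates were 0.46 for Ablim1 and 0.39 for Vnn1.

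Plagl1, a zinc finger gene, had 7.29, 8.30 and 8.38 on transverse arrays, against 7.34, 7.44 and 7.41 on longitudinal arrays and an unstretched mean of 8.39. Transverse replicate 1 lay with the longitudinal arrays and the other two with unstretched tissue. Without it the difference between directions was 0.87 (adjusted p = 0.013), and with it the estimate was 0.53 ± 0.18 (adjusted p = 0.403). Under longitudinal stretch Plagl1 fell by 0.94 (adjusted p = 0.00207) and held the call with each of the 9 arrays left out. Atp8a1 (a lipid flippase), Apba1 (a neuronal adaptor protein), Tmem176a (a membrane protein), Xdh (xanthine dehydrogenase) and Fam46a also lay higher under transverse stretch. In that order, their differences from longitudinal stretch were 1.14, 1.00, 1.19, 0.75 and 0.72 without transverse replicate 1. With all 6 arrays they were 0.56, 0.43, 0.51, 0.30 and 0.33. Without transverse replicate 2 they were 0.37, 0.07, 0.43, 0.14 and 0.06. Within harvest 4 they were -0.59, -0.41, -0.72, -0.425 and -0.265, and within harvest 5 0.96, 0.995, 0.40, 0.73 and 0.70. Against unstretched tissue the transverse estimates with all arrays were -0.01, 0.05, -1.13, -0.51 and -0.125.

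Among those that lay lower, Magoh, of the exon junction complex, had 8.72, 6.27 and 8.21 on transverse arrays, against 8.55, 8.73 and 8.32 on longitudinal arrays. Hint1, a nucleotide hydrolase, had 9.81, 8.11 and 9.71 on transverse arrays, against 9.93, 9.83 and 9.81 on longitudinal arrays, and Psmd14, a proteasome subunit, had 9.86, 8.21 and 9.34 on transverse arrays, against 9.58, 9.86 and 9.41 on longitudinal arrays. In all 3 the harvest 5 array stood apart from both other transverse arrays. Magoh differed between directions by -1.31 without transverse replicate 1 (adjusted p = 0.016), and the estimate was -0.17 without transverse replicate 2. Sec61b, a subunit of the protein channel of the endoplasmic reticulum, and Serf1 differed by -0.98 each without transverse replicate 1. Their estimates were -0.08 and -0.25 without transverse replicate 2. Without transverse replicate 1, Tbx20, Prkcd and Cdh2 also lay higher under transverse than longitudinal stretch. Their differences were 0.69 (adjusted p = 0.0105), 0.36 (adjusted p = 0.0348) and 0.36 (adjusted p = 0.036).

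At the other times of the study the directions lay closer for most of these genes. Between transverse and longitudinal stretch 4 genes passed at 6 h (0.0215%, 379 genes at an unadjusted p under 0.05, 2.04%) and 0 at 96 h (0%, 1061 genes at an unadjusted p under 0.05, 5.7%). Xirp2 differed by -0.08 ± 0.36 at 6 h and 0.10 ± 0.39 at 96 h, and Scrn1 by -0.00 ± 0.15 and 0.07 ± 0.16. Nppb differed by -0.45 ± 0.23 at 6 h and 0.09 ± 0.25 at 96 h. None of these 3 passed the test of the difference between times, for which 1 gene passed between 24 h and 6 h (0.00538%, 463 at an unadjusted p under 0.05, 2.49%) and 0 between 24 h and 96 h (0%, 1072 at an unadjusted p under 0.05, 5.76%). Without transverse replicate 1, 3 passed between 24 h and 96 h. The smallest of those adjusted p for the 3 genes named was 0.668 (Scrn1, 24 h against 96 h).

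The gene that passed between 24 h and 6 h was Csf2, the cytokine GM-CSF. At 24 h it was dim in both directions, with 4.15, 4.09 and 4.46 on transverse arrays, against 3.97, 4.38 and 4.20 on longitudinal arrays (0.02 ± 0.21). At 6 h the difference was -1.72 ± 0.20 (adjusted p = 5.47e-06), which gives a change of 1.74 between the times (adjusted p = 0.0104). The 24 h values lie near the lower end of the signal range, so this change restates mostly the 6 h difference. The call was lost without transverse replicate 3 or longitudinal replicate 1, with harvests 4 and 5 alone in both 24 h groups, and with the 0 h array of the same harvest subtracted.

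**Figure D5:**
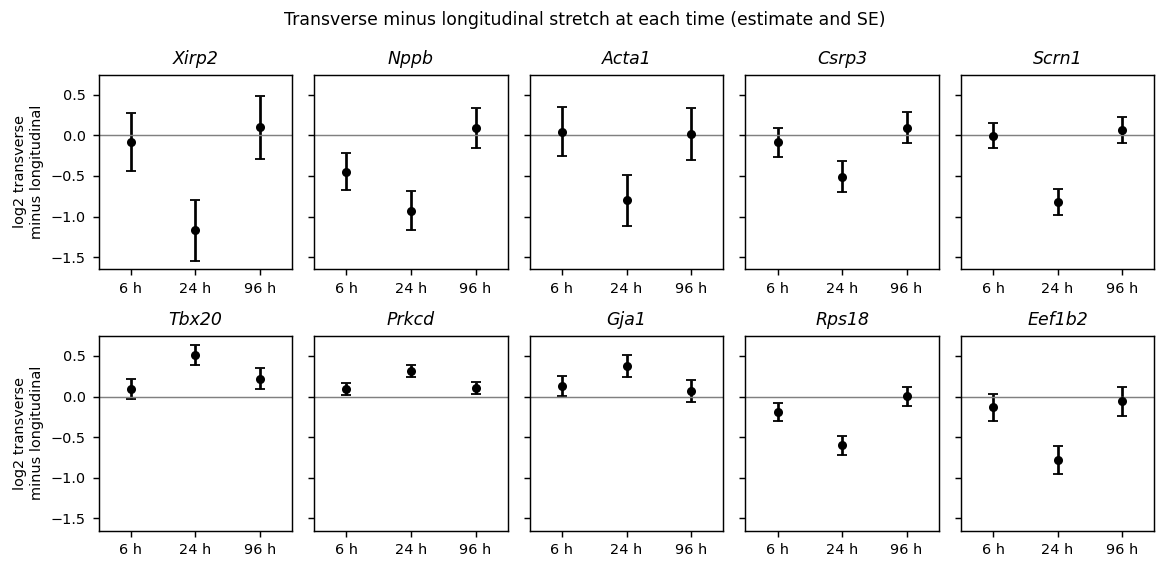
Log2 transverse minus longitudinal difference at 6, 24 and 96 h for 10 genes, each with its standard error from the same model. The estimates of Xirp2, Acta1, Csrp3 and Scrn1 lie near 0 at 6 and 96 h and below 0 at 24 h, and the change between times did not pass for any of the 10.

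Between the directions, list medians of the markers of other cell types ran from -0.08 (erythroid cells) to 0.08 (epicardium and mesothelium) over 7 lists, and 0 markers passed. Without transverse replicate 1 these medians were 0.24 for erythroid cells, 0.185 for fibroblasts, 0.18 for macrophages and leukocytes and 0.165 for epicardium and mesothelium. They were 0.13 for smooth muscle and pericytes, 0.10 for endothelium and -0.05 for Schwann cells and neurons. Fibroblast markers had list medians of 8.59 to 9.13 on transverse arrays and 8.80 to 9.24 on longitudinal arrays. Endothelial markers were low on all arrays, at 4.99 to 5.23 under transverse and 5.26 to 5.41 under longitudinal stretch, ranges that do not overlap, and 6 of the 8 measured had negative differences (median -0.06). All 9 Schwann cell and neuron markers were negative (median -0.04), with list medians of 4.70 to 4.73 on transverse and 4.71 to 4.82 on longitudinal arrays. Their part in the results above was not tested. Col1a1, the fibroblast collagen, differed by 0.09 (95% interval -0.44 to 0.62), and the immediate early gene Fos by -0.17 (-0.47 to 0.13).

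Other lists had medians from -0.065 (immediate early response) to 0.11 (cholesterol synthesis), and none of their members passed. Without transverse replicate 1 the median of YAP and TEAD targets was 0.20 in place of -0.04, that of extracellular matrix 0.13 in place of -0.02 and that of cholesterol synthesis, with 16 of 18 genes positive, -0.01 in place of 0.11. The other lists covered thick and thin filaments, YAP and TEAD targets, extracellular matrix, glycolysis, oxidative phosphorylation, cell cycle, cytokines, the interferon, heat shock and antioxidant responses, apoptosis, hormone systems, growth factors and the cytoskeleton. Among 8854 probe sets without exactly 1 gene symbol 0 passed, 471 had an unadjusted p under 0.05, and 20 passed without transverse replicate 1.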

How the data were processed

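RNA of engineered rat ventricular tissue was measured on 51 Affymetrix arrays of 16 groups. The deposited log2 signals were made by the authors with Affymetrix Expression Console and RMA, and limma was used, per the submitters' processing notes. No source used here gives the array type or any version. The deposited table has 29214 probe sets, of which 20360 carry exactly 1 gene symbol. Of several probe sets for 1 symbol the one brightest on average stood for the gene, which left 18602 genes. Group means and a term for harvest, which the labels give, were fitted to all 51 arrays with limma 3.58.1 in R 4.3.3 (lmFit and eBayes), with Benjamini-Hochberg adjustment. Deviations from group means correlated at a mean r of 0.219 between arrays of the same harvest and -0.048 between arrays of different harvests. The fit was tested on simulated data. With few arrays per group, estimates are imprecise. Arrays of 1 group come from separate harvests. The p-values rest on the spread that remains once group means and the harvest term are removed, estimated from all 51 arrays (30 residual degrees of freedom).

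The members and gene lists were chosen with earlier results of these data known. Genes named by rule were the 8 per direction with the smallest p among genes of the same sign in harvests 4 and 5 and a signal at or above the median, plus a set of known stretch and hypertrophy genes. Loci without a gene name were skipped, 1 gene the rule selects is not reported here, and Tnc matched no probe set with 1 symbol. All other genes, and the 15 named without transverse replicate 1, were chosen after their values were seen. Sequences and gene spans come from RefSeq (GRCr8). The 23 alternatives varied the harvest term, the arrays, the normalization and the probe set choice, and 5 of them were added after the data were seen.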

Additional observations from a re-analysis of the deposited data

Results flagged for a closer look

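One result met the conditions for a closer look. For Csf2, the cytokine GM-CSF, the difference between transverse and longitudinal stretch was not the same at 24 h and at 6 h, by a test of the difference itself in limma (24 h minus 6 h: 1.74 ± 0.28, adjusted p = 0.0104, 3 arrays per direction and time). At 6 h the arrays had 5.84, 5.75 and 5.16 under transverse stretch, against 7.80, 6.93 and 7.18 under longitudinal stretch, so that all 3 transverse arrays were the lower ones. At 24 h all 6 arrays lay between 3.97 and 4.46, near the lower end of the signal range. The call was lost with harvests 4 and 5 alone in both 24 h groups (smallest adjusted p = 0.331) and with the 0 h array of the same harvest subtracted (0.154). It was also lost without transverse replicate 3 (0.0613) and without longitudinal replicate 1 (0.0771).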

How the results depend on the processing

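The count of genes past the threshold between the directions was 0 under most alternatives. It was 1 with harvests 4 and 5 alone in both groups, 4 with a pair of isotropic arrays exchanged, 1 with the harvest 6 array as the only transverse array, and 0 to 286 with 1 array left out. Harvest pairs the arrays, and without that replicate block the count was 0 (1024 at an unadjusted p under 0.05). Between 24 h and 6 h the count was 0 with the 0 h array of the harvest subtracted and 0 within shared harvests, and 0 to 1 with 1 array left out. Between 24 h and 96 h it was 1 with the harvest 6 array only and 0 to 3 with 1 array left out. Against unstretched tissue the transverse count was 6 with arrays of 24 h and 0 h alone and 37 to 694 with 1 array left out. The longitudinal count was 238 without the replicate block, 27 with arrays of 24 h and 0 h alone and 149 to 462 with 1 array left out. Without the block, 270 genes had an unadjusted p under 0.05 between 24 h and 6 h, against 463 with it, and it moved no other count of adjusted calls by more than 1.5 times.

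Signs under the alternatives were followed for the genes named by rule, Csf2 among them, and for those named without transverse replicate 1. Genes singled out from a list, such as Ankrd23, Gdf15 and Pln, were not followed. Among the genes followed, 17 estimates had the opposite sign, and the cause was not tested. Col1a1 was -0.077 without the replicate block, -0.009 with harvest as a random block and -0.13 to 0.30 with 1 array left out. Vcl was -0.007 within shared harvests, -0.006 with quantile scaling repeated and -0.109 to 0.152 with 1 array left out. Csf2 was -0.176 within shared harvests, -0.002 with arrays of 24 h and 0 h alone and -0.086 to 0.129 with 1 array left out. Tmem176a was -0.158 within shared harvests. Ankrd1 was -0.141 to 0.03 with 1 array left out and 0.06 with the harvest 6 array only, where Nppb was 0.352, Csrp3 0.004 and Fos 0.27. The other estimates of the genes followed kept their sign, and 49 passed the threshold under an alternative. With 3 arrays per direction and a median standard error of 0.10, small differences cannot be resolved.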
